A study of Mus musculus with 8 samples.

Results

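The genes Lgr5, Ascl2, Olfm4, Smoc2, Axin2, Rnf43, Fzd5, Ephb2, Ephb3 and Cd44 are known in the small intestinal crypt as stem cell markers or as targets and receptors of Wnt signalling. They were chosen by name, and each symbol matched 1 Ensembl ID of the counts table through GENCODE M39, so that they make up 10 of 55414 gene IDs. Their RNA was measured in Paneth cells sorted by FACS from mouse small intestine, in 4 libraries of mice labelled DT TG (TG), which carry diphtheria toxin in their Paneth cells, and in 4 libraries of wild type mice (WT). Diphtheria toxin stops protein synthesis in the cells that hold it. The promoter behind the toxin and the strain, age and sex of the animals are not given in the labels. The study names C57BL/6J mice for the sorted Paneth cells of its listed datasets in general. The study lists these libraries as purified cells profiled once mature Paneth cells had been depleted, so the TG libraries hold the cells that were still sorted then. The comparison addresses how the RNA of those cells differs from WT.

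At the crypt base, stem cells and Paneth cells lie side by side in a field of Wnt ligands. Wnt proteins bind Frizzled receptors, stabilise beta-catenin and switch on genes through TCF and LEF factors. R-spondins bind LGR receptors and keep the ubiquitin ligases RNF43 and ZNRF3 from clearing Frizzled, while AXIN2 scaffolds the complex that destroys beta-catenin. Both ligases and AXIN2 are themselves Wnt targets and so act as feedback. In the crypt base stem cell the same signal maintains Lgr5 and Ascl2, and in the Paneth cell it drives maturation, for which Fzd5 is needed, and sets position through EphB receptors.

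Total counts ranged from 13107397 to 16218434 per library and did not differ between the groups beyond their spread (exact two-sided permutation test, p = 0.743, n = 4 each). Paneth markers (Lyz1, Mmp7, Ang4, Itln1, Mptx2, Pla2g2a, Defa24 and Defa30) summed to 352400 to 531500 CPM in each library, with overlapping groups. CPM are counts scaled to a library of 1000000 after correction of the library size by TMM factors, which allow for differences in composition. Counts of 4 Y-linked genes (Uty, Kdm5d, Ddx3y and Eif2s3y) summed to 0 counts in replicates 1 and 2, TG and WT alike, and to 897 to 1564 counts in each of the remaining libraries. Values are therefore also given within replicates 1 and 2 and within replicates 3 and 4. The study states that its sorted samples came from individual mice, while the labels of these libraries do not tie them to animals, and p-values measure the spread between the libraries.

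All 10 genes passed the low-count filter and had at least 112 counts in each library. Axin2, Rnf43 and Fzd5 rose in TG, Smoc2 fell, and the other 6 genes did not pass an adjusted p of 0.05 in edgeR. Over all 11929 genes tested, 8.26% were called higher and 9.65% lower in TG. The median log2 fold change was 0.19 over the 10 genes and 0.01 over all genes tested, with 6 fitted values above 0 and 4 below. The median of the 10 genes was 0.09 without TG replicate 2, 0.10 without WT replicate 2 and 0.31 without WT replicate 3, and it was 0.42 in replicates 1 and 2 and -0.05 in replicates 3 and 4. Scaling by total counts gave 0.31, with 0.12 over all genes. TG libraries lay apart from WT libraries for 3 genes on the higher side and 1 on the lower side. Such separation held for 10% of the tested genes on the higher side and 12% on the lower side, 22% together, and 17.9% of the tested genes were called in either direction. In bulk RNA, fewer cells of a type and less RNA per cell cannot be told apart. The study states that its Paneth cell sorts held very few contaminating cells. These bulk values cannot assign the RNA of a gene to Paneth cells or to other cells in a sort.

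**Figure D1:**
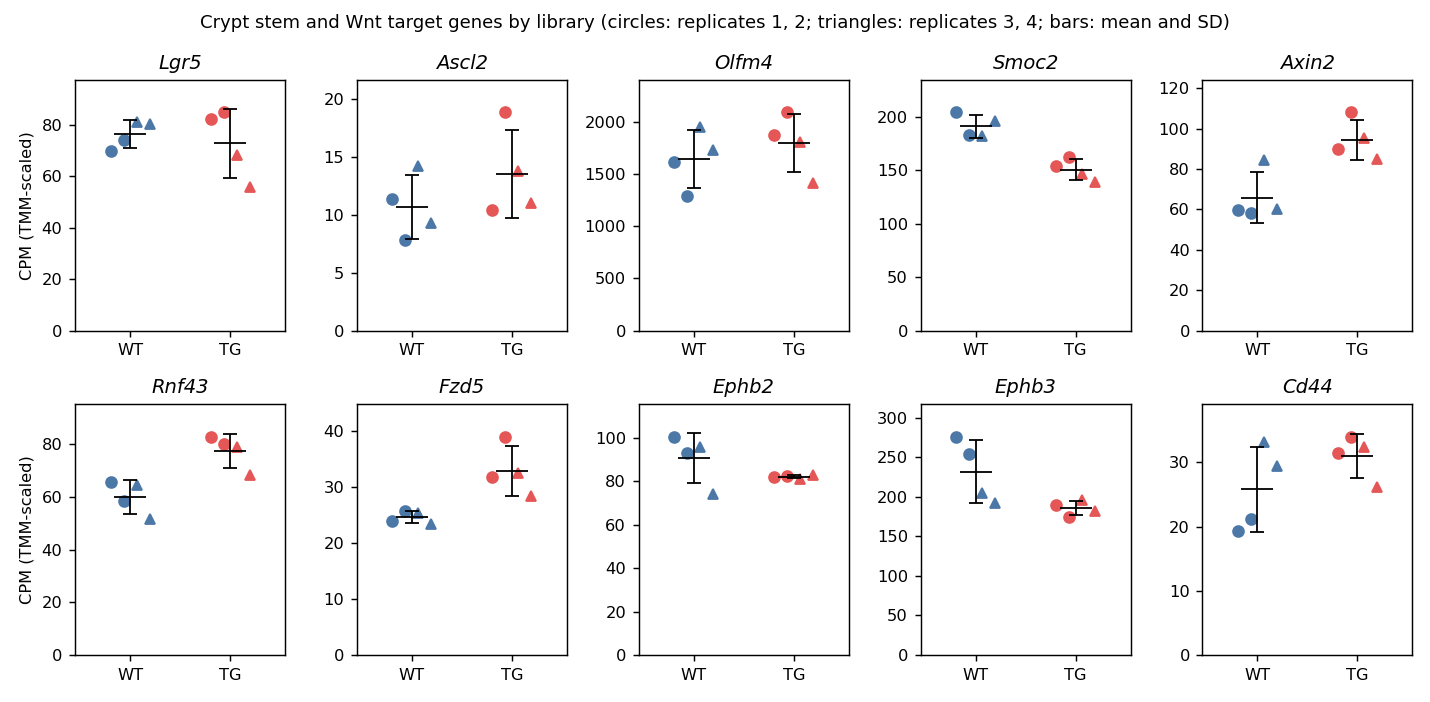
CPM with TMM-scaled library sizes (vertical axes, from 0) of each of the 10 genes in the 4 WT and 4 TG libraries, with circles for replicates 1 and 2, triangles for replicates 3 and 4, and bars for the mean and SD. Axin2, Rnf43 and Fzd5 lie higher in every TG library than in any WT library, and Smoc2 lies lower.

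Axin2 (ENSMUSG00000000142, GRCm39 chromosome 11, 108811169 to 108841609, plus strand) is the scaffold whose transcription is widely used as a readout of Wnt signalling. It had 89.8, 108.0, 95.4 and 84.8 CPM in TG replicates 1 to 4 and 59.7, 58.0, 84.7 and 60.4 CPM in WT replicates 1 to 4. The highest WT library, replicate 3, thus lay just under the lowest TG library. Axin2 rose by 0.52 ± 0.12 on the log2 scale (SE, n = 4 each), which is 1.44-fold, at an edgeR adjusted p of 0.0107. Without WT replicate 3 this was 0.67 ± 0.10 (SE), at an adjusted p of 0.00172 in edgeR. That library also had the lowest Paneth marker sum, 352400 CPM, and the highest sum of 16 proliferation genes, 688.2 CPM against 428.3 to 516.4 CPM in the other WT libraries. Their part in its Axin2 value was not tested.

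The core letters that TCF and LEF factors bind were looked for in promoters, since Wnt targets are commonly driven through them. The search took CTTTGA and CTTTGT on both strands, over 250 bases before and 50 bases from the start of the Ensembl canonical transcript in GRCm39. Axin2 and Olfm4 held a match, which is 2 of the 10 genes, against 30.6% of 21627 protein-coding promoters of the same length and 25.8% of the 11294 whose genes were tested. The share among the 10 genes was thus no higher than among all promoters. The matches are shown in 30 bases each, in the direction of the gene, with the matched letters in capitals.
Axin2, chr11:108811604-108811633, plus strand: ctcggctcgcgcCTTTGAagtgcacagtta
Olfm4, chr14:80237441-80237470, plus strand: ctACAAAGgctaCTTTGAttctgtctcctt
Counted from the transcript start, the Axin2 match begins at position -22 and those of Olfm4 at -248, on the opposite strand, and at -238. The window covers a small part of the sequence near each gene, and a match is a description of letters.

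Rnf43 (ENSMUSG00000034177, chromosome 11, 87553548 to 87626377, plus strand) encodes the ubiquitin ligase that removes Frizzled receptors from the cell surface. It had 82.8, 80.2, 78.8 and 68.2 CPM in TG replicates 1 to 4 and 65.5, 58.6, 64.5 and 51.6 CPM in WT replicates 1 to 4. TG replicate 4 was the lowest of its group and still above every WT library. Rnf43 rose by 0.37 ± 0.10 on the log2 scale (SE, n = 4 each), at an edgeR adjusted p of 0.0178. Without TG replicate 1, TG replicate 2 or WT replicate 4 the call was lost, at edgeR adjusted p of 0.0657, 0.0601 and 0.0576, while the values on the log2 scale were 0.34, 0.35 and 0.30.

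Fzd5 (ENSMUSG00000045005, chromosome 1, 64769717 to 64776934, minus strand) encodes the Frizzled receptor needed for Paneth cell maturation. It had 31.8, 39.1, 32.6 and 28.4 CPM in TG replicates 1 to 4 and 24.1, 25.8, 25.4 and 23.4 CPM in WT replicates 1 to 4. The WT values were close together, with an SD of 1.10 CPM against 4.44 CPM in TG, and the groups did not overlap. Fzd5 rose by 0.42 ± 0.10 on the log2 scale (SE, n = 4 each), at an edgeR adjusted p of 0.0132. Without TG replicate 2, the highest library, it was 0.33 on the log2 scale and the edgeR adjusted p was 0.0542.

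Smoc2 (ENSMUSG00000023886, chromosome 17, 14499735 to 14625074, plus strand) encodes a secreted calcium-binding matrix protein that is enriched in Lgr5-positive stem cells. A gene on the same strand, Gm34567, overlaps it and had 393 counts in all libraries together. It had 153.4, 162.0, 146.6 and 139.1 CPM in TG replicates 1 to 4 and 203.8, 182.4, 181.7 and 196.1 CPM in WT replicates 1 to 4. Every TG library was lower than every WT library, and the spread within each group was small. Smoc2 fell by 0.35 on the log2 scale (SE 0.09, n = 4 each), with an edgeR adjusted p of 0.0139. The call was kept in each of the 8 fits that left out 1 library. Scaling by total counts gave it a log2 fold change of -0.22 and an edgeR adjusted p of 0.199, under a scaling that moved the median of all genes from 0.01 to 0.12.

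Lgr5 (ENSMUSG00000020140, chromosome 10, 115286216 to 115423685, minus strand), the R-spondin receptor that defines crypt base stem cells, did not pass the test. It had 82.3, 84.9, 68.2 and 56.0 CPM in TG replicates 1 to 4 and 69.8, 74.0, 81.1 and 80.5 CPM in WT replicates 1 to 4. The groups overlapped, and TG libraries formed both the highest and the lowest values. Its value on the log2 scale was -0.07, with a 95% interval of -0.32 to 0.18 and an edgeR adjusted p of 0.725. It was 0.05 with total counts, so that its sign depended on the scaling.

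Olfm4 (ENSMUSG00000022026, chromosome 14, 80221521 to 80260579, plus strand), a secreted glycoprotein and a strong marker of crypt base stem cells, was by far the most abundant of the 10 genes. It had 1876, 2092, 1811 and 1416 CPM in TG replicates 1 to 4 and 1621, 1287, 1952 and 1734 CPM in WT replicates 1 to 4. The ranges of the groups overlapped over most of their length. The difference on the log2 scale was 0.13, with a 95% interval of -0.19 to 0.44 and an edgeR adjusted p of 0.586. It was 0.02 without WT replicate 2, 0.05 without TG replicate 2, 0.22 without TG replicate 4 and 0.21 without WT replicate 3.

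Ascl2 (ENSMUSG00000009248, chromosome 7, 142520564 to 142523006, minus strand), the transcription factor that sets stem cell identity under Wnt control, was measured at the lowest CPM of the 10 genes. It had 10.5, 18.9, 13.8 and 11.02 CPM in TG replicates 1 to 4 and 11.4, 7.80, 14.3 and 9.30 CPM in WT replicates 1 to 4. The groups overlapped, and its coefficient of variation was the largest of all 10 genes, at 28.4% in TG and 26.2% in WT. The log2 fold change was 0.34, with a 95% interval of -0.12 to 0.80 and an edgeR adjusted p of 0.287. It was 0.14 without TG replicate 2, 0.21 without WT replicate 2 and 0.51 without WT replicate 3.

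The EphB receptors place cells along the crypt by repulsion from ephrin-B ligands on neighbouring cells, and EphB3 holds Paneth cells at the base. Ephb3 (ENSMUSG00000005958, chromosome 16, 21023495 to 21042057, plus strand) had 189.3, 174.9, 196.1 and 182.2 CPM in TG replicates 1 to 4 and 275.8, 254.5, 204.6 and 191.7 CPM in WT replicates 1 to 4. WT replicates 1 and 2 lay well above all TG libraries, and WT replicate 4 lay within the TG range. Ephb3 had a log2 fold change of -0.32 ± 0.11 (SE, n = 4 each), and its edgeR adjusted p of 0.0613 missed the threshold. DESeq2 gave an adjusted p of 0.0398, and edgeR gave 0.0439 without WT replicate 3 and 0.0315 without WT replicate 4. Against these, voom gave -0.24 (adjusted p = 0.112) and total counts gave -0.20 (adjusted p = 0.326).

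Ephb2 (ENSMUSG00000028664, chromosome 4, 136374850 to 136563351, minus strand) is the receptor whose level falls from the stem cell upwards along the crypt. It had 81.8, 82.6, 81.3 and 82.7 CPM in TG replicates 1 to 4 and 100.5, 93.2, 95.6 and 74.0 CPM in WT replicates 1 to 4. The TG libraries were nearly equal, with a coefficient of variation of 0.838% against 12.8% in WT. The log2 fold change was -0.15, with a 95% interval of -0.35 to 0.06 and an edgeR adjusted p of 0.303. It was -0.23 without WT replicate 4 (adjusted p = 0.0839), -0.08 with voom and -0.04 with total counts.

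Cd44 (ENSMUSG00000005087, chromosome 2, 102641486 to 102732010, minus strand), the hyaluronan receptor found on stem and Paneth cells of the crypt base, did not pass the test over all libraries. It had 31.4, 34.0, 32.3 and 26.2 CPM in TG replicates 1 to 4 and 19.3, 21.2, 33.1 and 29.5 CPM in WT replicates 1 to 4. WT replicates 1 and 2 lay below all other libraries, and WT replicates 3 and 4 lay within the TG range. On the log2 scale the difference was 0.26, with a 95% interval of -0.08 to 0.60 and an edgeR adjusted p of 0.263. It was 0.15 without WT replicate 1 and 0.41 without WT replicate 3.

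TG replicate 2 had the highest TG value for 7 of them (Ascl2, Axin2, Cd44, Fzd5, Lgr5, Olfm4 and Smoc2). TG replicate 4 had the lowest TG value for 7 (Axin2, Cd44, Fzd5, Lgr5, Olfm4, Rnf43 and Smoc2). WT replicate 3 had the highest WT value for 5, which were Ascl2, Axin2, Cd44, Lgr5 and Olfm4. Ephb2 and Ephb3 were in none of these 3 sets of genes, and both were highest among the WT libraries in replicate 1.

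The difference between TG and WT was next given within the libraries that share the state of the Y-linked counts. Rnf43 had log2 fold changes of 0.39 in replicates 1 and 2 and 0.35 in replicates 3 and 4, Fzd5 0.50 and 0.33, and Smoc2 -0.29 and -0.40. Since the TG and WT libraries of these 3 genes did not overlap, the same direction in both sets was fixed beforehand. It is therefore no further evidence. No value of these 3 genes passed an edgeR adjusted p of 0.05 with 2 libraries against 2. Of all genes tested in replicates 1 and 2, 4.15% were called higher and 5.29% lower, and in replicates 3 and 4 these were 0.94% and 0.865%. Axin2 had 0.75 with an edgeR adjusted p of 0.00677 in replicates 1 and 2 and 0.32 with 0.319 in replicates 3 and 4. Cd44 had 0.68 with an edgeR adjusted p of 0.0147 in replicates 1 and 2 and -0.09 with 0.789 in replicates 3 and 4. Olfm4 had 0.45 and -0.19, Ascl2 0.61 and 0.08, and Ephb2 -0.24 and -0.04, without a call in either set. Lgr5 had 0.21 and -0.37, with both TG libraries above both WT libraries in replicates 1 and 2 and both below in replicates 3 and 4. Ephb3 had -0.54 with an edgeR adjusted p of 0.0304 and -0.06 with 0.820.

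These differences between the sets were tested with an edgeR interaction term over all 8 libraries. No gene of the 10 passed, with adjusted p of 0.450 to 0.982, and 4 had an unadjusted p below 0.05. These were Cd44, Lgr5, Ephb3 and Olfm4, with unadjusted p of 0.00176, 0.00447, 0.0147 and 0.0326. Over all 11929 genes, 3 passed the adjusted threshold, which is 0.0251%, and 684 had an unadjusted p below 0.05. Sex cannot be told apart from whatever else may separate the first pair of replicates from the second.

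**Figure D2:**
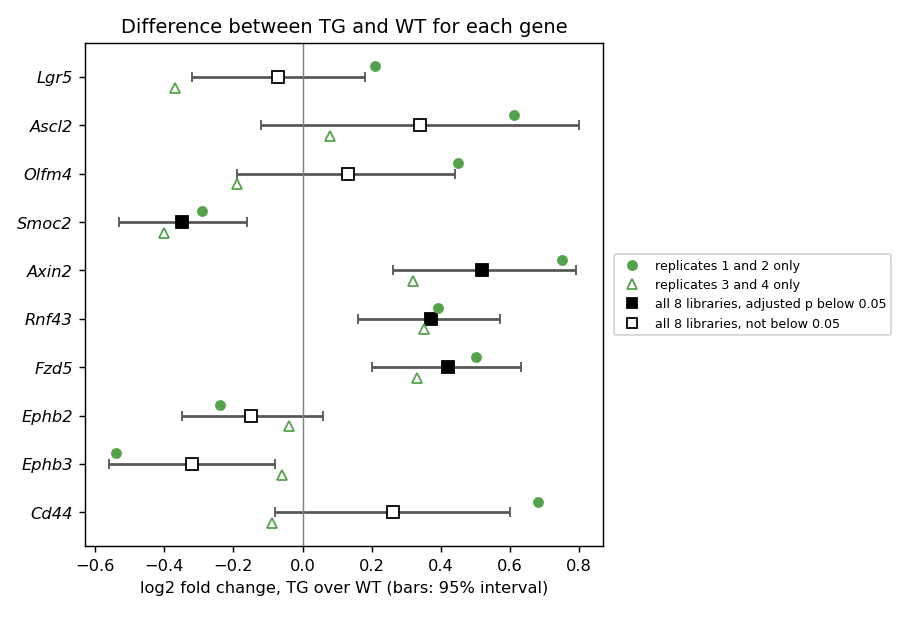
Log2 fold change of TG over WT (horizontal axis) for each of the 10 genes, with squares and 95% intervals for all 8 libraries, filled where the edgeR adjusted p was below 0.05, and green circles and triangles for replicates 1 and 2 alone and replicates 3 and 4 alone. Rnf43, Fzd5, Axin2 and Smoc2 keep their side of 0 in both sets, which follows from groups that do not overlap. Lgr5, Olfm4 and Cd44 lie on opposite sides.

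Levels were compared between genes as CPM per kilobase of annotated exons, since longer transcripts give more counts. Olfm4 stood first with 603 ± 94.5 in TG against 552 ± 93.0 in WT (SD, 4 libraries each), above 99.7% of the tested genes. Ephb3 followed with 26.8 ± 1.32 and 33.5 ± 5.78, above Smoc2 in every library of both groups. Smoc2 came next with 16.2 ± 1.05 in TG and 20.5 ± 1.16 in WT, and overlapped Axin2 in TG while lying above it in every WT library. Axin2 and Rnf43 overlapped in both groups, and so did Lgr5 and Ephb2, with Lgr5 at 7.09 ± 1.31 in TG and 7.44 ± 0.528 in WT. Ascl2, low in CPM for its short transcript, stood near Lgr5 with 8.31 ± 2.36 in TG and 6.55 ± 1.71 in WT. Fzd5 and Cd44 stood last and overlapped each other, with Fzd5 still above 65.4% of the tested genes.

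**Figure D3:**
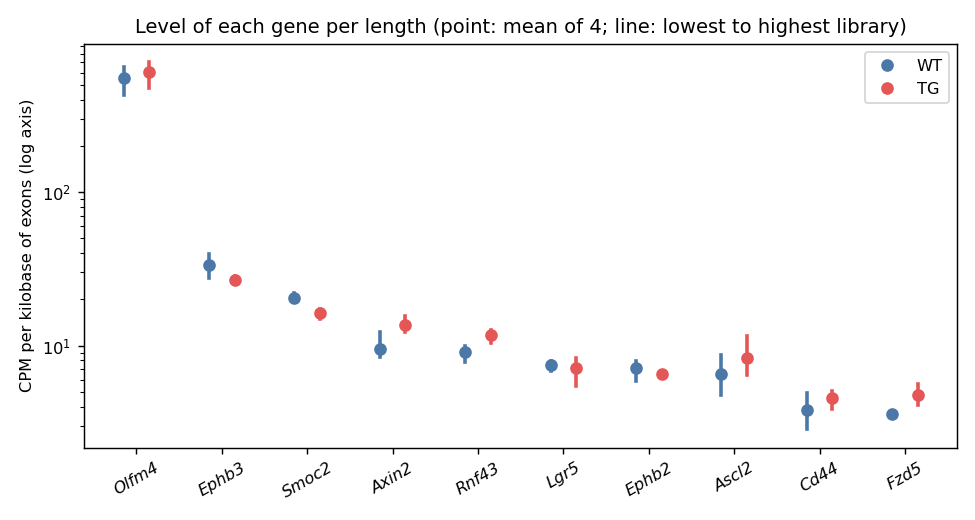
Level of each gene as CPM per kilobase of exons (vertical log axis), with points for the mean of 4 libraries and lines from the lowest to the highest library, blue for WT and red for TG. Olfm4 lies more than a factor of 10 above all others, and the genes from Axin2 to Ascl2 lie close together.

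Other genes of the Wnt pathway were followed by role in a list of 76, of which 56 passed the low-count filter. Of these, 7 rose, 1 fell and 48 did not pass, with a median log2 fold change of 0.08. The risen share was 12.5% beside 8.26% of all genes tested, and the fallen share was 1.79% beside 9.65%. Without TG replicate 2 the risen genes were 2, and without TG replicate 1 or WT replicate 4 they were 3, in fits that called 4.01%, 4.44% and 6.01% of all genes higher.

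Of 12 ligands, 4 were tested and edgeR, DESeq2 and voom each called 0, while 2 of them (Wnt9a and Wnt10a) had an unadjusted edgeR p below 0.05. At least 17.9% of all genes tested had such a p, since that share was called after adjustment. Wnt3, the main Wnt made by Paneth cells, had 171.9 ± 12.03 CPM in TG and 187.8 ± 24.4 CPM in WT (SD, n = 4 each), with an edgeR adjusted p of 0.399. The 4 R-spondins had 1 count in all libraries together, which was from Rspo4, and were not tested. The secretion factors Porcn and Wls were tested and not called, and 0 had an unadjusted p below 0.05.

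Of 14 other receptors, 12 were tested and 1 rose. Fzd1 rose from 1.13 ± 0.639 to 2.77 ± 0.667 CPM (SD, n = 4 each), with an edgeR adjusted p of 0.0229. It is expressed at a low level, and its log2 fold change of 1.26 was 1.10 (adjusted p = 0.0868) without TG replicate 2 and 1.22 (adjusted p = 0.0579) without WT replicate 4. Lgr4, the R-spondin receptor with the broadest expression in crypts, had a value of -0.30 on the log2 scale (adjusted p = 0.0829), and the Frizzled receptors Fzd4 and Fzd6 had 0.54 (adjusted p = 0.067) and 0.46 (adjusted p = 0.139). Of the 12 receptors, voom called 3 and DESeq2 1.

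Of 14 genes of cytoplasmic transduction, 13 were tested and Amer1, which binds APC at the membrane, rose with a log2 fold change of 0.41 ± 0.12 (SE, n = 4 each) and an edgeR adjusted p of 0.0268. That call was lost without TG replicate 1, TG replicate 2, WT replicate 1 or WT replicate 4, with values of 0.35 to 0.42 and edgeR adjusted p of 0.0582 to 0.0969, and with total counts (0.52, adjusted p = 0.0625). Ctnnb1, which encodes beta-catenin and had the highest level per length in the list, had 524.5 ± 26.1 CPM in TG and 511.3 ± 25.0 CPM in WT (SD, n = 4 each). Its log2 fold change of 0.04 had a 95% interval of -0.16 to 0.23.

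Of 12 nuclear genes, 11 were tested, 1 rose and 1 fell. Tle2, a Groucho-type corepressor, rose from 4.74 ± 2.60 to 12.5 ± 2.55 CPM (SD, n = 4 each), with an edgeR adjusted p of 0.0225. Tcf7l2, the main TCF factor of the intestinal epithelium, fell from 38.3 ± 4.62 to 30.8 ± 2.81 CPM (SD, n = 4 each), with an edgeR adjusted p of 0.0464. The Tcf7l2 call held without WT replicate 1 and was lost without any 1 of the other 7 libraries, at -0.36 to -0.26 against -0.32 over all libraries. It was also lost with the replicate block (-0.31, adjusted p = 0.0693), with the Y-linked factor (-0.32, adjusted p = 0.053) and with total counts (-0.21, adjusted p = 0.384). The Tle2 call was lost without TG replicate 1, TG replicate 2 or WT replicate 4, with edgeR adjusted p of 0.0630, 0.0612 and 0.05 at log2 fold changes of 1.24, 1.40 and 1.23 against 1.39 over all libraries.

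Of 11 inhibitors and feedback genes besides Axin2 and Rnf43, 7 were tested and 3 rose, while edgeR called 8.26% of all genes tested higher. These 3 were expressed at low levels. Per length, Wif1 stood above 37% of the tested genes, Notum above 14.4% and Apcdd1 above 6.34%. Their lowest counts in a library were 11, 15 and 30. Wif1, a secreted protein that binds Wnt, had 6.51, 5.77, 5.08 and 6.31 CPM in TG replicates 1 to 4 and 2.72, 0.766, 1.61 and 2.75 CPM in WT replicates 1 to 4. Each TG library was above each WT library, and Wif1 rose by 1.60 ± 0.29 on the log2 scale (SE), at an edgeR adjusted p of 0.00301. Notum, the secreted enzyme that strips the lipid from Wnt, rose from 1.87 ± 0.489 to 3.72 ± 1.45 CPM (SD, n = 4 each), and Apcdd1, a membrane inhibitor of Wnt, from 3.07 ± 0.755 to 5.25 ± 0.724 CPM. Their edgeR adjusted p were 0.0345 and 0.0216. The Notum call was lost without TG replicate 1, TG replicate 4, WT replicate 1 or WT replicate 2, with adjusted p of 0.0603 to 0.103 at log2 fold changes of 0.70 to 0.96 against 0.98 over all libraries. The Apcdd1 call was lost without TG replicate 2 or TG replicate 3, with adjusted p of 0.0622 and 0.0643 at 0.75 and 0.69 against 0.77. The 4 tested genes of this role that edgeR did not call include Znrf3, the partner ligase of Rnf43, at -0.03 on the log2 scale (adjusted p = 0.859), Nkd1, which binds Dishevelled, at -0.41 (adjusted p = 0.0536), and Dkk3, of the Dickkopf family, at 0.77 (adjusted p = 0.0559). DESeq2 called 5 of the 7 genes and voom 4, and voom did not call Notum (0.80, adjusted p = 0.0769). Over all genes DESeq2 called 8.14% higher and 10% lower, and voom 9.79% and 11%.

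All 7 further Wnt targets were tested and 1 rose. Myc, a transcription factor of growth, rose from 35.7 ± 4.00 to 44.4 ± 3.72 CPM (SD, n = 4 each), with an edgeR adjusted p of 0.0408. The Myc call held without WT replicate 1 or WT replicate 2 and was lost without any 1 of the other 6 libraries, where the log2 fold change was 0.24 to 0.36 against 0.32 over all libraries, and with total counts (0.43, adjusted p = 0.0701). Bambi, a decoy receptor of the TGF-beta family, had 260.6 ± 36.5 CPM in TG and 208.4 ± 47.8 CPM in WT (SD, n = 4 each), with an edgeR adjusted p of 0.159. It was called higher in 3 of 19 alternatives and not called in 16, with log2 fold changes of 0.22 to 0.47 against 0.32. Sox9, which Paneth cells need, and Ccnd1, a cyclin, were not called, with edgeR adjusted p of 0.438 and 0.784.

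**Figure D4:**
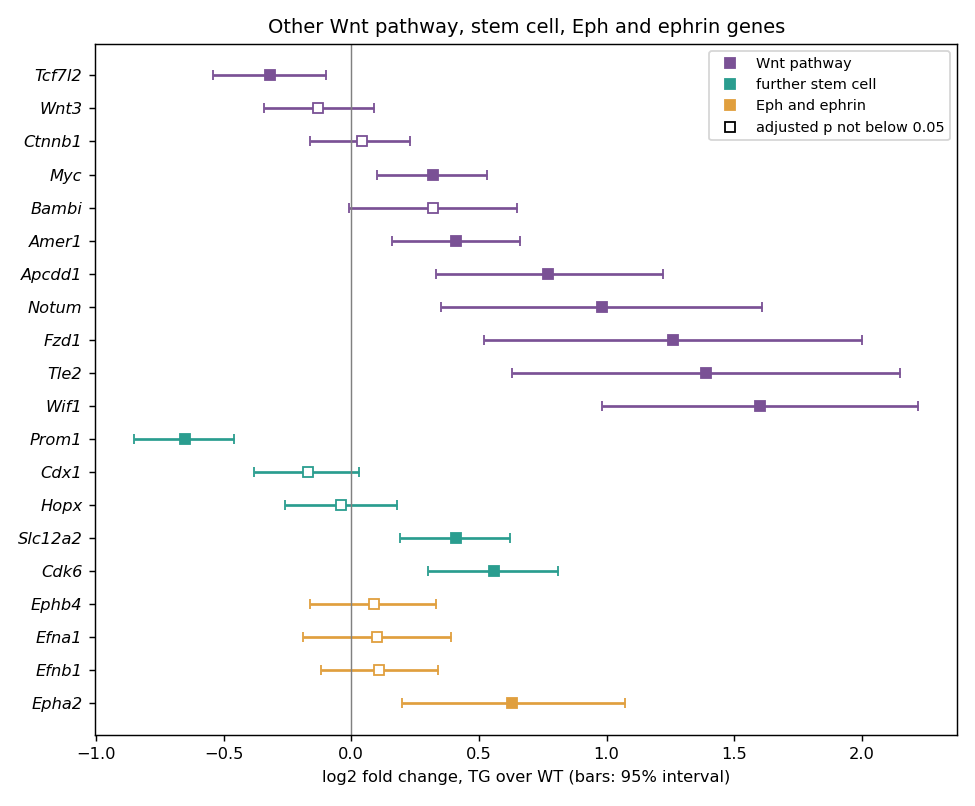
Log2 fold change of TG over WT with 95% intervals (horizontal axis) for called and most abundant genes of the Wnt pathway (purple), further stem cell (green) and Eph and ephrin (orange) lists, filled where the edgeR adjusted p was below 0.05. Wif1, Tle2 and Fzd1 have the largest increases, and Prom1 and Tcf7l2 are the genes called lower.

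A list of 18 further stem cell genes was tested in full, and 2 rose, 1 fell and 15 did not pass, with a median log2 fold change of 0.12. The risen share was 11.1% and the fallen share 5.56%, near the 8.26% and 9.65% of all genes tested. Slc12a2, the sodium, potassium and chloride cotransporter of crypt cells, had 579.4, 659.6, 513.9 and 551.5 CPM in TG replicates 1 to 4 and 421.8, 411.8, 458.5 and 447.9 CPM in WT replicates 1 to 4. It rose without overlap by 0.41 ± 0.10 on the log2 scale (SE), at an edgeR adjusted p of 0.0137. Cdk6, a cell cycle kinase, rose from 30.3 ± 4.50 to 44.6 ± 5.82 CPM (SD, n = 4 each), with an edgeR adjusted p of 0.00692. Prom1, the membrane glycoprotein CD133, had 125.1, 115.6, 148.2 and 130.9 CPM in TG replicates 1 to 4 and 213.1, 208.6, 202.2 and 194.2 CPM in WT replicates 1 to 4. Prom1 fell by 0.65 on the log2 scale (SE 0.09), with an edgeR adjusted p of 0.000751. The summed level of the list was 1545 to 1709 CPM in TG and 1442 to 1527 CPM in WT, and the groups did not overlap. Slc12a2 made the largest contribution, and without it the other 17 genes summed to 1017 to 1050 CPM in TG and 1030 to 1096 CPM in WT, which overlapped. Hopx and Cdx1, the most abundant per length with Slc12a2, were not called, with values of -0.04 and -0.17 on the log2 scale and adjusted p of 0.822 and 0.227, and Hopx turned to 0.08 with total counts. Cdx1 was -0.09 without WT replicate 1 and -0.05 with total counts. Without WT replicate 3 the risen genes were 5 of 18, in a fit that called 7.56% of all genes higher.

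Of 20 other Eph receptors and ephrins, 10 were tested and 1 rose, which is 10% beside 8.26% of all genes tested. Epha2, a receptor of ephrin-A ligands, rose from 3.08 ± 0.446 to 4.80 ± 0.936 CPM (SD, n = 4 each), with an edgeR adjusted p of 0.0428. Leaving out 1 library ended the call in 6 of 8 fits and kept it without TG replicate 2 or WT replicate 1. In those 6 fits the log2 fold change was 0.51 to 0.69 against 0.63 over all libraries, and with the replicate block it was 0.62 (edgeR adjusted p = 0.0532). The most abundant per length were Ephb4, Efna1 and Efnb1. Efnb1, a ligand of Ephb2 and Ephb3, had 34.5 ± 3.60 CPM in TG and 32.1 ± 4.48 CPM in WT (SD, n = 4 each), with an edgeR adjusted p of 0.514.

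Markers of other cells are given beside these results, and their part in them was not tested. Of all genes, edgeR called 8.26% higher and 9.65% lower, DESeq2 8.14% and 10%, and voom 9.79% and 11%. The share of all genes with an unadjusted edgeR p below 0.05 was not counted, and it is at least the 17.9% called in edgeR. All 16 proliferation genes were tested, of which edgeR called 0, DESeq2 0 and voom 1, with 0 at an unadjusted edgeR p below 0.05. Their sums were 515.0 to 587.4 CPM in TG and 428.3 to 688.2 CPM in WT. Of 10 enterocyte genes 4 rose in edgeR (Alpi, Apoa4, Apob and Mttp), voom called 4 and DESeq2 7, and 7 had an unadjusted edgeR p below 0.05. Their median log2 fold change was 1.66, with 9 of 10 fitted above 0. The sums overlapped at 448.6 to 646.5 CPM in TG and 447.3 to 509.6 CPM in WT, with most of them from Vil1, a gene of the epithelium in general that had a log2 fold change of -0.18. Without Vil1 the other 9 genes summed to 118.4 to 259.5 CPM in TG and 54.4 to 104.5 CPM in WT, so that every TG library was above every WT library. Of the 8 Paneth markers 3 fell in edgeR (Mmp7, Ang4 and Mptx2), DESeq2 called 4 and voom 3. Their median log2 fold change was -0.37, with 7 of 8 fitted below 0 and Mptx2 at -1.35, while the sums came mostly from Lyz1 and Defa24, which were not called. Of 7 goblet genes edgeR called 0, DESeq2 0 and voom 1, and 1 had an unadjusted edgeR p below 0.05, with sums of 4470 to 6845 CPM in TG and 5874 to 7003 CPM in WT and Tff3 the most abundant per length.

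The sums of 6 enteroendocrine genes were 22.2 to 34.9 CPM in TG and 25.5 to 61.8 CPM in WT, with Sct leading, and those of 4 tuft cell genes were 19.3 to 62.4 and 21.2 to 45.3 CPM, with Avil highest per length. In edgeR 0 genes of either list were called and 0 had an unadjusted p below 0.05, while voom called 1 enteroendocrine gene and DESeq2 0. Of 8 immune genes 2 were tested and edgeR called 0, with Cd74 at -1.84 on the log2 scale (adjusted p = 0.0577), while DESeq2 and voom each called 1. Their sum was 60.5 to 195.0 CPM in TG and 281.3 to 471.3 CPM in WT, with Cd74, which epithelial cells also express, at a mean of 91.9 CPM in TG and 329.1 CPM in WT, while Adgre1 was at 0 counts in all libraries. The 6 stromal genes, of which Acta2 was highest per length, summed to at most 0.521 CPM in any library, and none was tested.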

How the data were processed

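RNA of sorted Paneth cells had been sequenced from stranded, poly(A)-selected libraries. The authors deposited 1 table of raw counts per Ensembl gene for 8 libraries. The submitters' processing notes name FastQC 0.12.0, STAR 2.7.0a, DESeq2 and mm39 with no role, while the way this table was counted, its annotation and the treatment of shared reads are not given for it. For its own pooled analysis the study describes STAR with GENCODE and quantification by Salmon as TPM, and whether the deposited counts came from those steps is not given in the sources used here. Groups and replicate numbers came from the labels. Symbols, positions and union exon lengths came from GENCODE M39 on GRCm39, which matched 54749 of 55414 IDs.

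All libraries entered 1 fit with edgeR 4.0.16 in R 4.3.3 (TMM factors, default filter by group, robust quasi-likelihood, group as the only term), with Benjamini-Hochberg adjustment over 11929 genes and a threshold of 0.05. The SE is the log2 fold change divided by the root of its F statistic, and 95% intervals use the moderated degrees of freedom. The steps were tested on simulated data. Replicates were checked for duplicates, and the lowest chi-square per degree of freedom between 2 of a group was 5.20, so none looked like a repeat of another. Each library was counted as 1, and this check cannot show whether the libraries came from different animals. Intervals cover these libraries only.

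The members, lists and tests were chosen with earlier results of these data known. Named were all members and, of the Wnt pathway, stem cell and Eph lists, the called genes and the 3 with the highest level per length. For the other markers the list sum and the leading gene are given. Lgr4, Znrf3, Nkd1, Sox9, Ccnd1, Porcn, Wls, Wnt9a, Wnt10a, Rspo4, Dkk3, Fzd4 and Fzd6 and the called marker genes were named, and sums without the most abundant gene were taken, after their values were seen. Alternatives were DESeq2 1.42.0, RLE factors, limma 3.58.1 (voom, sample weights), total counts, library sizes without alpha-defensin genes and Lyz1, other filters, a replicate block, a Y-linked factor, the sets with and without Y-linked counts, and leaving out 1 library.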

Additional observations from a re-analysis of the deposited data

Results flagged for a closer look

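In 82 groups of 4 libraries, 4 had 1 library whose gap to the nearest other took an unusually large part of the range, and chance gives about 1 in 20. For Axin2 it was WT replicate 3 at 84.7 CPM, where the rest of WT had 58.0 to 60.4 CPM, a gap of 0.909 of the range. For Efnb1 it was WT replicate 1 at 38.7 CPM, where the rest of WT had 29.1 to 30.7 CPM, a gap of 0.830. Among the marker sums, WT replicate 4 was high for enterocyte genes at 509.6 CPM, against 447.3 to 456.2 CPM, and for stromal genes at 0.521 CPM, against 0 to 0.0799 CPM, gaps of 0.857 and 0.847.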

How the results depend on the processing

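Of 190 values of the 10 genes under 19 alternatives, 167 kept their direction and side of the threshold. The causes of the changes below were not tested, except that sets of 4 libraries hold fewer samples.

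Among the 10 genes, 3 higher and 1 lower became 3 and 2 with DESeq2, 3 and 2 with no low-count filter, and 3 and 0 with total counts. Of all genes, DESeq2 called 8.14% higher and 10% lower. The fit with no filter, over 21291 genes, called 6.19% and 6.28%, and total counts called 6.6% and 2.2%. Replicates 3 and 4 alone gave 0 higher and 0 lower. Without 1 library there were 1 to 3 higher, the lowest without TG replicate 2, and 1 to 2 lower, the highest without WT replicate 3 or WT replicate 4. Log2 fold changes that changed sign were Lgr5 (0.05 with total counts, 0.21 in replicates 1 and 2, 0.04 without TG replicate 4), and, in replicates 3 and 4, Olfm4 (-0.19), Cd44 (-0.09), Ephb4 (-0.03), Efna1 (-0.11) and Hopx (0.15). Hopx was 0.08 with total counts, 0.00 without TG replicate 2 and 0.02 without WT replicate 1, Ephb4 0.00 without WT replicate 2 and Efna1 -0.01 without TG replicate 1. Over the fits without 1 library the ranges were -0.15 to 0.04 for Lgr5, 0.00 to 0.18 for Ephb4, -0.01 to 0.18 for Efna1 and -0.12 to 0.02 for Hopx.

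Wnt pathway genes, 7 higher and 1 lower, became 11 and 3 with no filter, 4 and 0 in replicates 1 and 2, and 0 higher in replicates 3 and 4. The fit with no filter also tested listed genes that the filter had removed. The lower count was 2 with DESeq2, 2 with voom, 0 with total counts and 0 with the Y-linked factor. Without 1 library there were 2 to 9 higher and 0 to 3 lower. Further stem cell genes, 2 higher and 1 lower, became 4 higher with DESeq2, 5 with no filter and 4 in replicates 1 and 2, and 0 and 0 in replicates 3 and 4. Leaving out 1 library gave 2 to 5 higher. The 1 higher Eph gene became 0 in either set and 0 with the replicate block, and 0 to 1 without 1 library.

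Over all genes, 985 higher and 1151 lower became 787 and 262 with total counts, where higher genes made up 75% of calls in place of 46.1%, 500 and 638 in replicates 1 and 2, and 113 and 104 in replicates 3 and 4. Leaving out 1 library gave 485 to 1045 and 550 to 1183. Over the genes, the deviations of same-numbered libraries had correlations of 0.08, 0.07, 0.29 and 0.23. Libraries with different numbers were not compared in this way, so these values cannot show whether replicate numbers pair the libraries. With the replicate block 3 of the 10 genes were higher and 1 lower, with 1039 and 1164 over all genes.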
